A study of Mus musculus with 8 samples.

Results

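The secreted and membrane-bound effector molecules of T cells examined here are the products of 10 genes: Ifng, Tnf, Il2, Csf1, Csf2, Lta, Ltb, Fasl, Tnfsf10 and Spp1. They were chosen by gene name as cytokines, growth factors and death ligands of effector lymphocytes, and all 10 are among the 22609 gene rows of the deposited counts. The libraries came from liver CD8 T cells, sorted as living leukocytes (CD45+) with TCRβ and CD8α, without CD4, MHCII or NK1.1, and with the KLRG1+ CD127- profile of effector cells. All mice were male C57BL/6J, 6 weeks old, and had been given an agonist antibody to CD137, a costimulatory receptor of the TNF receptor family, on days 0, 3 and 6 before the livers were taken on day 8. The CD11c+ subset, with surface CD11c (an integrin chain encoded by Itgax), and the CD11c- subset, without it, had 4 libraries each. Both subsets shared the antibody treatment, and cells of untreated mice were not analysed here. The labels do not say whether the 4 libraries of a subset came from separate mice, so the p-values reflect variation between libraries that could be technical only.

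Effector CD8 T cells act on other cells by releasing cytokines and by displaying ligands of the TNF superfamily. IFN-γ (Ifng) acts through a receptor on target cells to raise antigen presentation and macrophage activity. TNF (Tnf), Fas ligand (Fasl) and TRAIL (Tnfsf10) bind receptors that can start caspase-dependent death, a route of hepatocyte killing in the liver. Lymphotoxin α (Lta) is secreted as a homotrimer or held at the cell surface by lymphotoxin β (Ltb), IL-2 (Il2) drives T cell growth, M-CSF (Csf1) and GM-CSF (Csf2) act on myeloid cells, and osteopontin (Spp1) is a secreted phosphoprotein that binds CD44 and integrins. Cytokine mRNAs are induced within hours of antigen receptor signalling and decay quickly, and the cells here were sequenced after sorting with no restimulation given in the labels.

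Ltb, Tnf and Lta are direct neighbours on chromosome 17, yet Ltb was present at a far higher level than Tnf or Lta. Ifng is the member most closely tied to effector CD8 T cells. Promoter sequences of these 4 members are therefore shown. Each is the 250 bases before the annotated start, 5′ to 3′ on the gene's strand, from RefSeq in build GRCm38.p6. The counts themselves were made on build mm9. Capitals mark GGAAA, the core recognised by NFAT factors of antigen receptor signalling, read on either strand (TTTCC on the other), and TATAAA, the TATA box.
Ltb promoter, chr17:35194257-35194506 (+ strand): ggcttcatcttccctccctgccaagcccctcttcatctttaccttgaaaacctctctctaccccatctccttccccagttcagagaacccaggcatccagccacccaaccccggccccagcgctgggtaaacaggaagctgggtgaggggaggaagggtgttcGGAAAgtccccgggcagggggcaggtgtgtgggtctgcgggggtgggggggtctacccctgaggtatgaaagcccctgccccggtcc
Tnf promoter, chr17:35202008-35202257 (- strand): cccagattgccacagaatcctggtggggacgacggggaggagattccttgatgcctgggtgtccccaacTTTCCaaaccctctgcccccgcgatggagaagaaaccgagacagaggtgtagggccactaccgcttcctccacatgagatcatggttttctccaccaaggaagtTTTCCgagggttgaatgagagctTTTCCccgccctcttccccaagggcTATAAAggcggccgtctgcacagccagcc
Lta promoter, chr17:35205352-35205601 (- strand): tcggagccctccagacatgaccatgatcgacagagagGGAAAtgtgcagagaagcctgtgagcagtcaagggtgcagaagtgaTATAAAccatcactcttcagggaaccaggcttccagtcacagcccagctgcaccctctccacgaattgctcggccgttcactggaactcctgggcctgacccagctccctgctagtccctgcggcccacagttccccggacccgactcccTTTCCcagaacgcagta
Ifng promoter, chr10:118440796-118441045 (+ strand): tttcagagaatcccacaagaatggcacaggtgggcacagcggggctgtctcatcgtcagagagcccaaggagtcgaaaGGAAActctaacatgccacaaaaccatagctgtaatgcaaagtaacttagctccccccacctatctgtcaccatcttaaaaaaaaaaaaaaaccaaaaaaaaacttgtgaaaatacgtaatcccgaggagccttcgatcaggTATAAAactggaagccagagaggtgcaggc
TATAAA ended 24 bases upstream of the Tnf start, 25 bases upstream of the Ifng start and 162 bases upstream of the Lta start, and these letters were not in the Ltb window. Over both strands, TATAAA was in 12.4% of 32817 promoter windows of this length and in windows of 5 of the 10 members (Ifng, Il2, Tnf, Lta and Spp1). GGAAA was in 55.6% of all windows and in windows of all 10 members, with 3 matches for Tnf, 2 for Lta, 1 for Ltb and 1 for Ifng. The AP-1 letters TGANTCA were in 6.75% of all windows and in none of the members' windows, and the T-box letters TCACAC were in 12.3% of all windows and in that of Csf1 alone among the members. No matches overlapped one another in the windows shown.

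The libraries held between 5090345 and 7093163 reads on genes, and 10482 to 12581 genes had at least 1 read. Values below are CPM, that is, reads of a gene scaled to the library's gene reads in the usual CPM unit, with library sizes adjusted by TMM factors. A count of 3 reads, the limit below which a 0 cannot be told from a low level, corresponded to between 0.42 and 0.587 CPM by library, which covers counting error only. Itgax, the gene of the sort marker, averaged 243 ± 76.4 CPM in CD11c+ libraries and 10.1 ± 5.64 CPM in CD11c- libraries (SD, n = 4 each; log2 fold change 4.60, edgeR adjusted p = 0.000136). Cd8a averaged 1173 and 1121 CPM and Cd3e 976 and 955 CPM in CD11c+ and CD11c- libraries, and Cd4 was at 0.39 and 0.29 CPM.

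Ltb, Fasl and Ifng were the abundant transcripts of the group, Tnfsf10 was at an intermediate level, and the other 6 were scarce in both subsets. Levels of different genes are compared per kilobase of exon, since the libraries read whole transcripts. Over all 8 libraries the mean level was 328 CPM per kb for Ltb, 145 for Fasl, 74.7 for Ifng, 6.76 for Tnfsf10, 3.49 for Tnf, 1.94 for Spp1, 1.67 for Lta, 1.56 for Csf1, 0.53 for Il2 and 0.249 for Csf2. The ranges of Ltb (266 to 433 CPM per kb), Fasl (125 to 165) and Ifng (40.0 to 120) did not overlap with that of the next gene, and each stood above the next in 8 of 8 libraries. Ifng exceeded Tnfsf10 by 11.1-fold in mean level per kb, the widest step between neighbours in the order. This step depends on the exon lengths used, 1208 bases for Ifng and 5266 bases for Tnfsf10. Without the length, Ifng averaged 90.3 CPM and Tnfsf10 35.6 CPM over all 8 libraries. From Tnfsf10 downwards the ranges of neighbours overlapped, and Tnfsf10 was above Tnf in 7 of 8 libraries. Spp1 was above Lta in 4 libraries and Lta above Csf1 in 4, so that the order of these 3 is not set by the data.

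**Figure D1:**
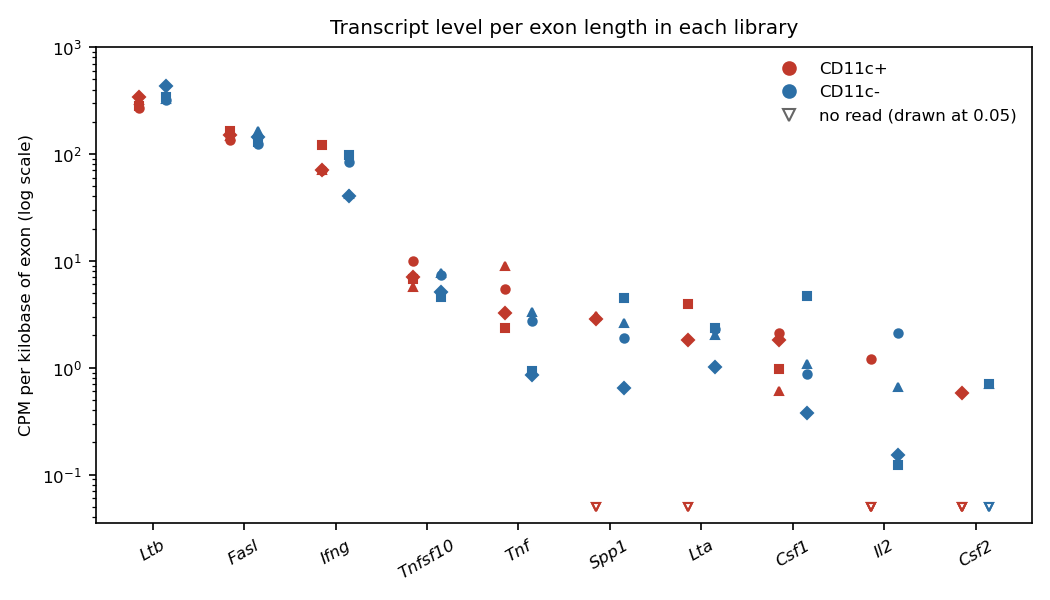
Each marker is the level of a gene in 1 library, in CPM per kilobase of exon on a log axis, with CD11c+ libraries left of CD11c- libraries and marker shapes for replicates 1 to 4. Ltb, Fasl and Ifng lie above all others in every library, and open triangles at the foot mark libraries with no read of the gene.

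The summed level of the 10 transcripts averaged 802 ± 52.1 CPM in CD11c+ libraries and 823 ± 38.0 CPM in CD11c- libraries (SD, n = 4 each). Ltb and Fasl together made up 80.2% ± 3.00 of that sum in CD11c+ libraries and 83.8% ± 5.81 in CD11c- libraries. The sums of the subsets overlapped, and the difference of the means was smaller than either SD.

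No member passed the edgeR test of CD11c+ against CD11c- cells. Of the 10, 8 passed the filter on low counts and were tested, and none had an adjusted p under 0.05, where 0.0496% of all 10073 tested genes (5 genes) did, 0.0298% with a higher and 0.0199% with a lower level in CD11c+ cells. None had an unadjusted p under 0.05, beside 4.7% of all tested genes, and DESeq2 and limma voom called none either. Both, and edgeR's other dispersion setting, gave Tnf an unadjusted p under 0.05. With the replicate number as a block, edgeR gave Tnf and Ltb unadjusted p of 0.0414 and 0.0321. Some fits without 1 library also gave Tnf or Ltb an unadjusted p under 0.05. In all 10 genes the CPM of the subsets overlapped, beside 3.44% of tested genes without overlap. Among so few genes, counts of 0 do not depart from these shares. Tnf, Ifng, Tnfsf10 and Fasl had higher fitted values in CD11c+ cells and Ltb, Csf1, Lta and Spp1 lower ones. The median log2 fold change of the 8 was -0.08, beside 0.01 over all tested genes. In bulk libraries such as these, fewer cells that carry a transcript and less transcript per cell cannot be told apart.

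**Figure D2:**
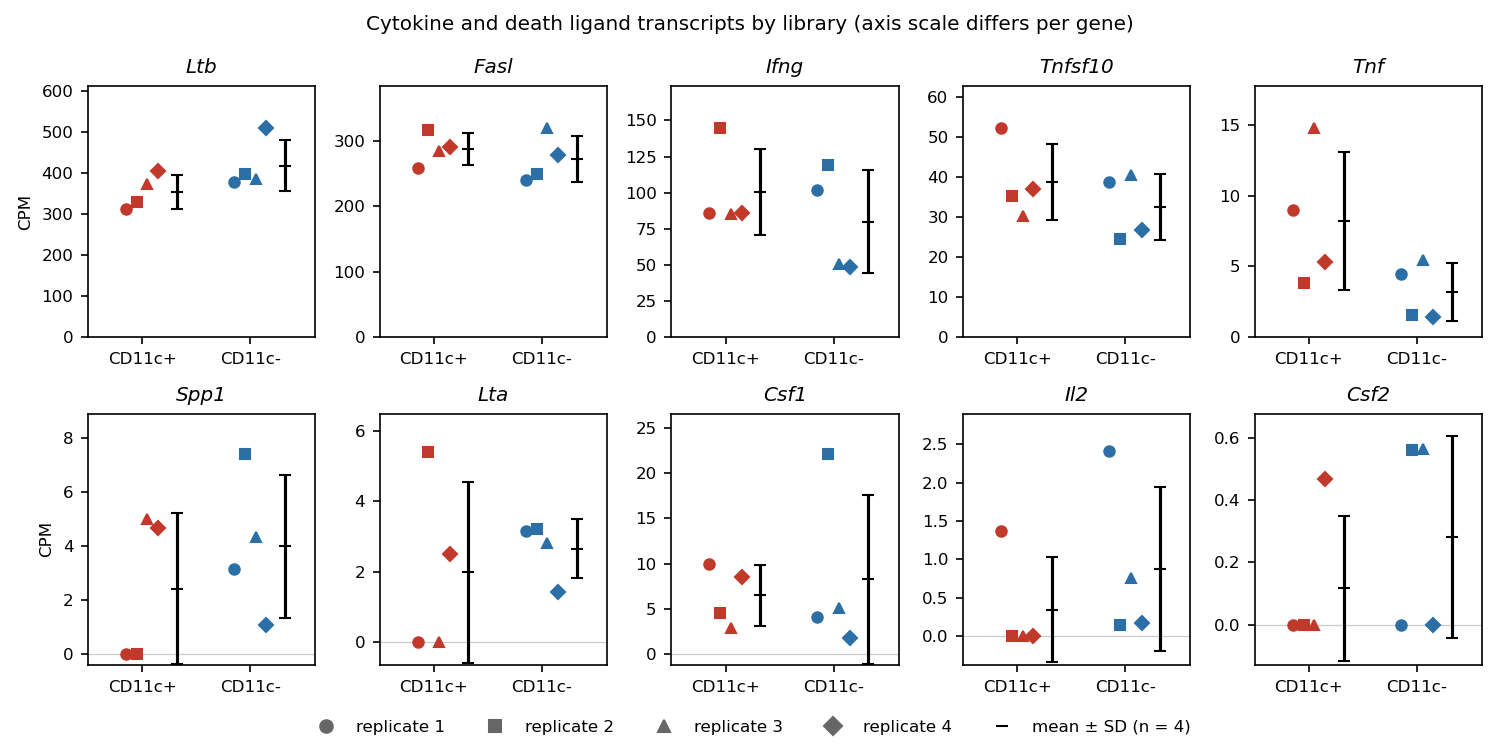
Each panel shows a gene's CPM in the 4 CD11c+ libraries (left, red) and the 4 CD11c- libraries (right, blue), with marker shapes for the replicates and black bars for the mean ± SD; the vertical scale differs between panels. The subsets overlap in all 10 panels, and Ifng, Csf1, Il2 and Csf2 each have 1 library well above the rest of its subset.

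Fasl, the ligand of the death receptor Fas, varied least between libraries and had the smallest fold change of the 8 tested members. It had 259, 317, 284 and 291 CPM in CD11c+ replicates 1 to 4, against 241, 249.7, 320.3 and 279 CPM in CD11c- replicates 1 to 4. The highest library of all was CD11c- replicate 3 and the lowest CD11c- replicate 1, so the CD11c+ values lay within the CD11c- range. The log2 fold change was 0.08 (SE 0.12, 95% interval -0.19 to 0.35, edgeR adjusted p = 0.992). Its coefficient of variation (CV) between libraries was 8.29% in CD11c+ and 13.1% in CD11c- cells, against 2.46% and 2.51% expected from counting its 6603 and 6367 reads alone.

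Tnfsf10 encodes TRAIL, which binds a death receptor encoded in mice by Tnfrsf10b and decoy receptors. It had 52.2, 35.3, 30.1 and 36.9 CPM in CD11c+ replicates 1 to 4, against 38.6, 24.4, 40.4 and 26.6 CPM in CD11c- replicates 1 to 4. CD11c+ replicate 1 was the highest library and CD11c- replicate 2 the lowest, and the subsets overlapped. The log2 fold change was 0.25 (SE 0.26, 95% interval -0.31 to 0.81, edgeR adjusted p = 0.991).

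Tnf, which exists as a membrane-bound and a shed cytokine, had the largest fold change of the 8 tested members and the smallest p among them, and did not pass the test. It had 46, 22, 83 and 34 reads in CD11c+ replicates 1 to 4, against 24, 11, 29 and 8 reads in CD11c- replicates 1 to 4. These counts correspond to 8.99, 3.84, 14.8 and 5.30 CPM in CD11c+ cells and to 4.46, 1.54, 5.46 and 1.41 CPM in CD11c- cells. The highest library was CD11c+ replicate 3, but CD11c+ replicate 2 lay below CD11c- replicates 1 and 3, so the subsets overlapped. Within each replicate number, Tnf was higher in the CD11c+ library. The log2 fold change was 1.36, or 2.56-fold (SE 0.68, 95% interval -0.11 to 2.82, edgeR adjusted p = 0.991). Over the alternative fits the adjusted p ranged from 0.659 to 1, and leaving out 1 library at a time gave log2 fold changes between 0.91 and 1.72.

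Tnf was highest in replicate 3 and lowest or next to lowest in replicate 2 of each subset, and the summed neutrophil markers and monocyte and Kupffer cell markers were highest in replicate 3 and lowest in replicate 2 of each subset; dendritic cell markers did not follow this order. The sum of neutrophil markers was 30.7, 2.27, 266 and 39.8 CPM in CD11c+ replicates 1 to 4, against 27.3, 7.0, 103 and 53.4 CPM in CD11c- replicates 1 to 4. Of the 6 neutrophil markers, 5 were in the files; S100a8, S100a9 and Csf3r carried all of the sum, and Mpo and Elane were at 0 in every library. The sum of 12 monocyte and Kupffer cell markers was 121, 93.9, 372 and 207 CPM in CD11c+ libraries, against 150, 94.7, 203 and 156 CPM in CD11c- libraries, and came mostly from Lyz2 and Cd68. The Kupffer cell markers Clec4f, Vsig4, Timd4 and Marco averaged below 0.6 CPM in CD11c+ libraries and were at 0 in all CD11c- libraries. Other macrophage markers of the list were present in both subsets. Adgre1, C1qa, C1qb and C1qc averaged 0.24, 0.58, 1.68 and 0.85 CPM in CD11c+ libraries. In CD11c- libraries they averaged 0.40, 1.03, 1.80 and 0.90 CPM. Cd14 averaged 1.82 and 0.79 CPM, and Csf1r 13.2 and 7.32 CPM, in CD11c+ and CD11c- libraries. The 8 dendritic cell markers summed to 33.4, 43.7, 83.2 and 78.9 CPM in CD11c+ replicates 1 to 4. In CD11c- replicates 1 to 4 they summed to 18.4, 17.9, 10.7 and 43.0 CPM, and the sums came mostly from H2-Ab1. The sum was thus highest in the CD11c+ library with the most Tnf, but lowest in the CD11c- library with the most Tnf. H2-Ab1 averaged 51.3 CPM in CD11c+ and 19.8 CPM in CD11c- libraries (log2 fold change 1.38, edgeR adjusted p = 0.923). NK and ILC1 markers were also highest in replicate 3 of each subset, with sums of 82.1 CPM in the CD11c+ and 37.8 CPM in the CD11c- library. The part of these transcripts in the Tnf difference was not tested. Without CD11c+ replicate 3 the log2 fold change of Tnf was 0.91, and without CD11c- replicate 3 it was 1.72.

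The lymphotoxin genes differed widely in level. Ltb was the most abundant member, with 313, 330.0, 373 and 405 CPM in CD11c+ replicates 1 to 4, against 378, 397, 387 and 510.4 CPM in CD11c- replicates 1 to 4. CD11c- replicate 4 stood above all other libraries. CD11c+ replicate 4 lay above CD11c- replicates 1 to 3, while CD11c+ replicates 1 to 3 lay below all CD11c- libraries. Within each replicate number, Ltb was lower in the CD11c+ library. Mean Ltb was 355 ± 41.4 CPM in CD11c+ and 418 ± 62.0 CPM in CD11c- cells (SD, n = 4 each), a log2 fold change of -0.24 (SE 0.13, 95% interval -0.52 to 0.04, edgeR adjusted p = 0.991). Lta, whose product needs lymphotoxin β to stay at the cell surface, had 0, 31, 0 and 16 reads in CD11c+ replicates 1 to 4, against 17, 23, 15 and 8 reads in CD11c- replicates 1 to 4. It was thus found in 2 of 4 CD11c+ and 4 of 4 CD11c- libraries, and the highest library, at 5.41 CPM, was CD11c+ replicate 2. The limit of 3 reads corresponded to 0.587 CPM in CD11c+ replicate 1 and 0.535 CPM in CD11c+ replicate 3. From counting error alone, the 95% interval of these zeros reached 0.725 CPM in replicate 1 and 0.648 CPM in replicate 3. The log2 fold change of Lta was -0.41 with a wide error (SE 1.15, 95% interval -2.92 to 2.09, edgeR adjusted p = 0.995). It was -1.61 without CD11c+ replicate 2, and -0.01 without CD11c+ replicate 1 or replicate 3.

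Of the 3 neighbouring genes whose promoters are printed above, Ltb therefore stood far above Tnf and Lta in these libraries. The ranges of Tnf (0.86 to 9.02 CPM per kb) and Lta (0 to 3.91 CPM per kb) overlapped. Ltb exceeded Tnf per kilobase by between 35.1-fold and 120-fold in the 4 CD11c+ libraries, against between 98.6-fold and 504-fold in the 4 CD11c- libraries. The ratios overlapped, with the CD11c+ ratios at the lower end.

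Ifng, which encodes IFN-γ, was present in every library and varied more between libraries than Ltb or Fasl. It had 86.0, 145, 85.2 and 86.2 CPM in CD11c+ replicates 1 to 4, against 102, 119, 50.8 and 48.3 CPM in CD11c- replicates 1 to 4. In CD11c+ cells 3 libraries were nearly equal and replicate 2 stood above them, while the CD11c- libraries formed a higher pair (replicates 1 and 2) and a lower pair (replicates 3 and 4). Mean Ifng was 101 ± 29.6 CPM in CD11c+ and 79.9 ± 35.8 CPM in CD11c- cells (SD, n = 4 each), a log2 fold change of 0.33 (SE 0.30, 95% interval -0.32 to 0.98, edgeR adjusted p = 0.991). Without CD11c+ replicate 2 the log2 fold change was 0.09, and without CD11c- replicate 2 it was 0.58. The spread was far from that of counting: the CV was 29.4% in CD11c+ and 44.8% in CD11c- cells, against 4.17% and 4.54% from read counting.

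Il2, which encodes the T cell growth factor IL-2, was near the limit of detection. It had 7, 0, 0 and 0 reads in CD11c+ replicates 1 to 4, against 13, 1, 4 and 1 reads in CD11c- replicates 1 to 4. Replicate 1 held most of the reads in each subset, and the subsets overlapped. Mean Il2 was 0.342 CPM in CD11c+ and 0.871 CPM in CD11c- libraries, and a two-sided exact permutation test of the 4 against 4 libraries gave p = 0.457, where the smallest p the design allows is 0.0286.

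The myeloid growth factors were scarce as well. Csf1 had 51, 26, 16 and 55 reads in CD11c+ replicates 1 to 4, against 22, 158, 27 and 10 reads in CD11c- replicates 1 to 4. CD11c- replicate 2, at 22.1 CPM, was the highest library, and the other CD11c- libraries lay between 1.76 and 5.08 CPM. The log2 fold change was -0.36 (SE 0.73, 95% interval -1.95 to 1.24, edgeR adjusted p = 0.992) and turned to 0.82 without CD11c- replicate 2, so that 1 library set its sign. Csf2 had 0, 0, 0 and 3 reads in CD11c+ replicates 1 to 4, against 0, 4, 3 and 0 reads in CD11c- replicates 1 to 4, and a two-sided exact permutation test gave p = 0.429. All 8 libraries together held 10 reads of Csf2.

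Spp1, which encodes osteopontin, had 0, 0, 28 and 30 reads in CD11c+ replicates 1 to 4, against 17, 53, 23 and 6 reads in CD11c- replicates 1 to 4. The CD11c+ libraries were either at 0 or near 5 CPM, and the CD11c- libraries spread from 1.06 to 7.42 CPM. Both CD11c+ libraries without a read (replicates 1 and 2) are among the 3 libraries with the fewest detected genes. The third of these, CD11c- replicate 1, had 17 reads. The log2 fold change was -0.72 (SE 1.17, 95% interval -3.26 to 1.82, edgeR adjusted p = 0.992), and it was 0.16 with those 3 libraries left out. That alternative was added after the data were seen and takes out both CD11c+ zeros by construction. The cause was not tested.

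**Figure D3:**
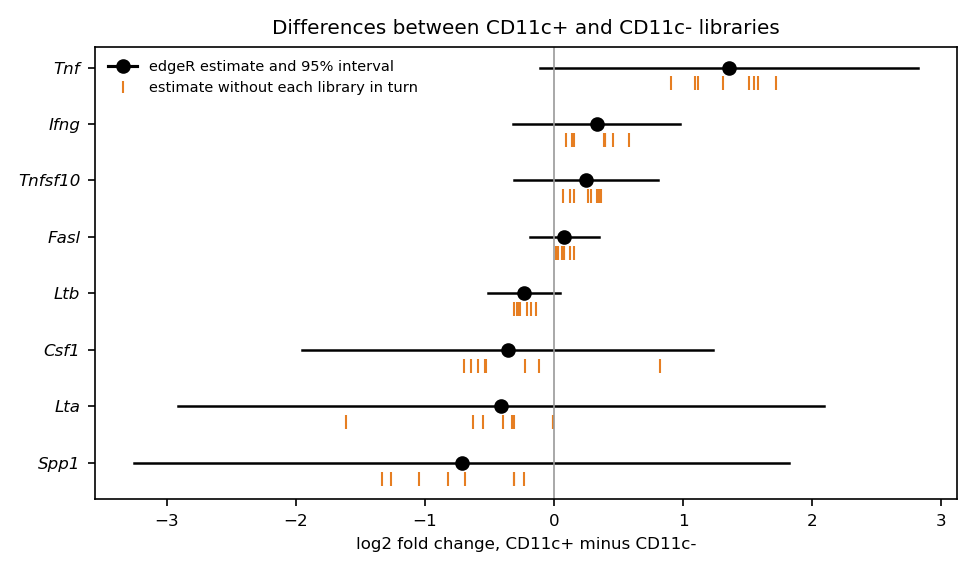
Black points and lines give the log2 fold change of CD11c+ minus CD11c- cells and its 95% interval for the 8 tested members, and orange ticks give the estimate without each library in turn. Every interval includes 0, those of Fasl and Ltb are narrow, and the ticks of Csf1 lie on both sides of 0.

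The width of the intervals followed the spread between libraries. The biological coefficient of variation fitted by edgeR was 13.8% for Fasl, 14.4% for Ltb, 26.9% for Tnfsf10 and 29.8% for Ifng, but 63.2% for Tnf, 71.5% for Csf1, 104% for Lta and 110.2% for Spp1. For Lta in CD11c- cells the CV between libraries, 31.9%, was close to the 25.2% expected from counting, while in CD11c+ cells it was 130.3% against 29.2%. For Csf1 in CD11c- cells the CV was 113% against 13.6%. The 95% intervals of the fold ran from 0.878 to 1.27 for Fasl and from 0.70 to 1.03 for Ltb, but from 0.132 to 4.26 for Lta and from 0.105 to 3.54 for Spp1.

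**Figure D4:**
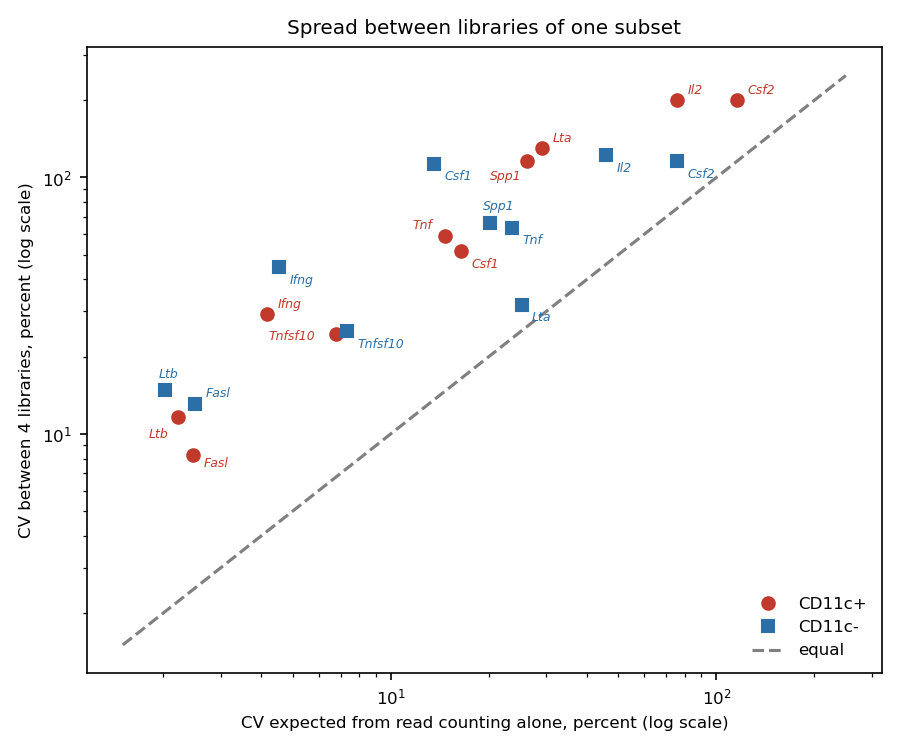
The CV between the 4 libraries of a subset (vertical, log scale) is plotted against the CV that counting the gene's reads alone would give (horizontal, log scale), with circles for CD11c+ and squares for CD11c-. All points lie above the dashed line of equality, with Lta and Csf2 in CD11c- cells closest to it and Csf1 in CD11c- cells far above.

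The transcripts that followed the abundant members most closely across the 8 libraries were chosen for their correlation among 7456 genes and are a description. For Ltb these were Rps2 (a ribosomal protein gene with near-identical copies elsewhere, so that its counts are uncertain; Pearson r = 0.967) and Tomm6 (a subunit of the mitochondrial import pore; r = 0.952). For Fasl they were Foxp1 (a transcription factor of lymphocytes; r = 0.947) and Zbtb24 (a zinc finger protein; r = 0.945), and for Ifng they were Hsd17b12 (an enzyme of fatty acid elongation; r = 0.939) and Zrsr2 (a splicing factor; r = 0.938). For Tnfsf10 they were Btbd11 (r = 0.973) and Rnf43 (an E3 ubiquitin ligase that acts on Wnt receptors; r = 0.941). All of these r were taken over log2(CPM + 1) in the same 8 libraries, which differed in depth and in detected genes. The part of these differences in r was not tested, and no test of r was made.

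Genes of the members' pathways, 181 in 9 lists, were read in the same fit. Of the 135 tested, none had an edgeR adjusted p under 0.05, and 15 had an unadjusted p under 0.05, 4 with a positive and 11 with a negative log2 fold change. That is 11.1% of the 135 genes, beside 4.7% of all tested genes; the lists were chosen with results of these data known. DESeq2 tested 154 of the pathway genes and called 3 at an adjusted p under 0.05 (Tbx21, Rhbdf2 and Tnfsf14), beside 36 of all 12162 genes it tested. Limma voom called 1 of the 135 (Tbx21), beside 19 of all 10073 genes.

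**Figure D5:**
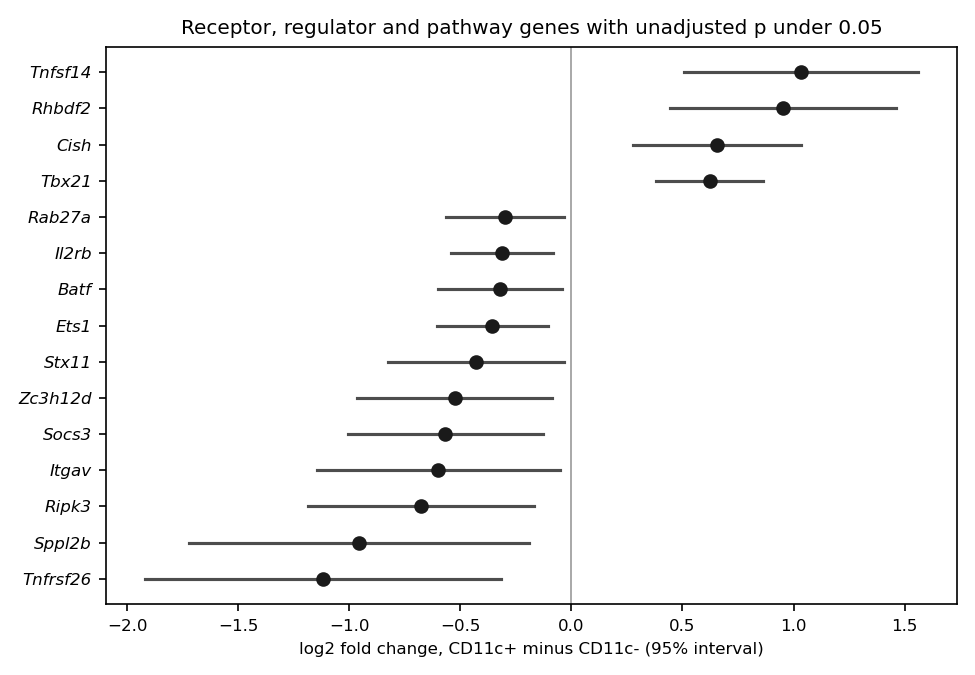
Points and lines give the log2 fold change of CD11c+ minus CD11c- cells and its 95% interval for the 15 pathway genes with an unadjusted p under 0.05 in edgeR, which was the criterion for showing them. Tnfsf14, Rhbdf2, Cish and Tbx21 lie to the right of 0 and the other 11 to the left.

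Among 31 transcription factors of cytokine genes, 29 were tested, with 1 higher and 2 lower in CD11c+ cells at an unadjusted p under 0.05 and a median log2 fold change of 0.05. Tbx21 encodes T-bet, which drives Ifng transcription in effector T cells. It had 359.9, 353, 312 and 373 CPM in CD11c+ replicates 1 to 4, against 226, 207, 253 and 222 CPM in CD11c- replicates 1 to 4. All CD11c+ libraries stood above all CD11c- libraries, by 1.54-fold in the fit (log2 fold change 0.62, SE 0.11, edgeR adjusted p = 0.085; over the alternative fits 7.02e-05 to 0.46). Ets1, a factor of lymphocyte differentiation, averaged 769 ± 31.1 CPM in CD11c+ and 984 ± 165 CPM in CD11c- cells (SD, n = 4 each; log2 fold change -0.36, edgeR adjusted p = 0.945). Batf, an AP-1 factor of activated T cells, averaged 216 ± 19.4 CPM in CD11c+ and 269.5 ± 36.4 CPM in CD11c- cells (log2 fold change -0.32, edgeR adjusted p = 0.991). In CD11c+ and CD11c- cells Ikzf1 (704 and 761 CPM) and Ikzf3 (408 and 419 CPM), zinc finger factors of lymphocytes, had log2 fold changes of -0.11 and -0.04.

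Regulators of the stability of cytokine mRNA included 14 tested genes, of which 1 was lower at an unadjusted p under 0.05, and the median log2 fold change was 0.12. That gene, Zc3h12d, encodes an RNase of the regnase family, and averaged 46.5 ± 9.64 CPM in CD11c+ and 67.0 ± 7.05 CPM in CD11c- cells (SD, n = 4 each; log2 fold change -0.53, edgeR adjusted p = 0.99). Arid5a, an RNA-binding protein that stabilises cytokine mRNAs, averaged 232 and 243 CPM in CD11c+ and CD11c- cells. Zfp36l1, which binds AU-rich elements and promotes decay, averaged 139.7 CPM in CD11c+ and 129 CPM in CD11c- cells. Elavl1, which binds such elements and protects the mRNA, averaged 188 CPM in CD11c+ and 199 CPM in CD11c- cells.

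Genes that shed or release TNF family ligands and granules had 1 higher and 3 lower members at an unadjusted p under 0.05 among 11 tested, with a median log2 fold change of -0.06. Rhbdf2 encodes iRhom2, which carries the TNF-cleaving protease ADAM17 to the cell surface. It had 37.9, 43.3, 35.1 and 29.0 CPM in CD11c+ replicates 1 to 4, against 18.9, 17.7, 17.1 and 21.3 CPM in CD11c- replicates 1 to 4. The subsets did not overlap (log2 fold change 0.95, SE 0.23, edgeR adjusted p = 0.494; over the alternative fits 0.0331 to 0.999). Sppl2b, an intramembrane protease that can act on the TNF stub, averaged 18.0 ± 8.21 CPM in CD11c+ and 34.9 ± 10.2 CPM in CD11c- cells (SD, n = 4 each; log2 fold change -0.96, edgeR adjusted p = 0.99). Rab27a and Stx11, which act in granule docking and fusion, had log2 fold changes of -0.30 and -0.43 (edgeR adjusted p = 0.991 each). In CD11c+ and CD11c- cells, Unc13d, which primes granules, averaged 282 and 339.5 CPM, the syntaxin-binding Stxbp2 averaged 171 and 187 CPM, and Sppl2a, a relative of Sppl2b, averaged 169.9 and 155 CPM.

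Of 13 further TNF superfamily ligands, 5 were tested and 1 was higher at an unadjusted p under 0.05; 4 had a positive log2 fold change and 4 of the 13 had no read in any library. Tnfsf14 encodes LIGHT, which shares the lymphotoxin β receptor with the lymphotoxins. It had 66.5, 40.5, 49.4 and 36.3 CPM in CD11c+ replicates 1 to 4, against 25.1, 19.3, 24.8 and 24.8 CPM in CD11c- replicates 1 to 4. The subsets did not overlap (log2 fold change 1.03, SE 0.24, edgeR adjusted p = 0.401; over the alternative fits 0.0279 to 0.986). Tnfsf9, which encodes the ligand of CD137, the receptor targeted by the antibody, had 24.8, 16.8, 23.0 and 21.0 CPM in CD11c+ replicates 1 to 4, against 7.80, 16.7, 16.0 and 14.3 CPM in CD11c- replicates 1 to 4 (log2 fold change 0.64, edgeR adjusted p = 0.991). Tnfsf4, which encodes OX40 ligand, averaged 18.6 ± 11.1 CPM in CD11c+ and 13.0 ± 7.04 CPM in CD11c- cells.

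Receptors for the members were tested for 17 of 24 genes; 3 were lower and none higher at an unadjusted p under 0.05, with a median log2 fold change of 0.01. The IL-2 receptor chains were abundant except for the α chain: Il2rb averaged 1532 ± 189 CPM in CD11c+ and 1902 ± 194 CPM in CD11c- cells (SD, n = 4 each; log2 fold change -0.31, edgeR adjusted p = 0.945). Il2rg averaged 1726 and 1677 CPM in CD11c+ and CD11c- cells, while Il2ra had 3.52, 2.79, 1.43 and 8.73 CPM in CD11c+ replicates 1 to 4, against 0, 1.40, 0.752 and 2.47 CPM in CD11c- replicates 1 to 4 (log2 fold change 1.81, edgeR adjusted p = 0.991). Ifngr1, the ligand-binding chain of the IFN-γ receptor, averaged 858 CPM in CD11c+ and 905 CPM in CD11c- cells, whereas Ifngr2, the other chain, averaged 0.762 and 0.972 CPM in CD11c+ and CD11c- cells. Tnfrsf26, a TNF receptor family gene listed here beside its mouse relatives, the TRAIL decoy receptors, but not known to bind TRAIL, averaged 9.78 ± 2.92 CPM in CD11c+ and 21.3 ± 8.63 CPM in CD11c- cells without overlap (log2 fold change -1.12, edgeR adjusted p = 0.945). Itgav, an integrin chain that binds osteopontin, averaged 26.2 ± 2.55 CPM in CD11c+ and 39.7 ± 10.7 CPM in CD11c- cells (log2 fold change -0.60, edgeR adjusted p = 0.991). The receptor Fas in CD11c+ and CD11c- cells averaged 68.6 and 58.2 CPM, and Ltbr, the lymphotoxin β receptor of stromal and myeloid cells, 1.16 and 0.27 CPM.

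No gene downstream of the members passed the edgeR test. Of 22 IFN-γ targets, 20 were tested and none had an unadjusted p under 0.05; 11 were positive and 9 negative, with a median log2 fold change of 0.04. In CD11c+ and CD11c- cells the immunoproteasome subunit Psmb8 averaged 1587 and 1701 CPM, the subunit Psmb9 averaged 639 and 675 CPM, and the peptide transporter Tap1 averaged 719.6 and 798 CPM. Of 15 tested genes of the IL-2 signal, 1 was higher and 2 lower at an unadjusted p under 0.05. Cish, a feedback inhibitor induced through STAT5, had 165, 108, 184 and 131 CPM in CD11c+ replicates 1 to 4, against 99.3, 99.4, 86.7 and 87.6 CPM in CD11c- replicates 1 to 4, with no overlap (log2 fold change 0.66, SE 0.17, edgeR adjusted p = 0.668). Socs3, another feedback inhibitor, averaged 30.1 ± 3.21 CPM in CD11c+ and 44.6 ± 5.12 CPM in CD11c- cells (SD, n = 4 each; log2 fold change -0.57, edgeR adjusted p = 0.99). The kinase gene Jak1 averaged 859.5 CPM in CD11c+ and 1043 CPM in CD11c- cells (log2 fold change -0.28), and Jak3 averaged 389.8 CPM in CD11c+ and 369 CPM in CD11c- cells (log2 fold change 0.08).

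Signal transduction from death receptors was represented by 21 tested genes, of which 1 was lower at an unadjusted p under 0.05; the median log2 fold change was -0.03. That gene, Ripk3, encodes the kinase of necroptosis, and had 47.1, 39.5, 80.5 and 80.0 CPM in CD11c+ replicates 1 to 4, against 113, 87.8, 94.2 and 101 CPM in CD11c- replicates 1 to 4 (log2 fold change -0.68, SE 0.23, edgeR adjusted p = 0.99). All CD11c+ libraries lay below all CD11c- libraries. In CD11c+ and CD11c- cells Tnfaip3, an inhibitor of NF-κB signalling, averaged 265 and 297 CPM, and the adaptor gene Traf1 averaged 230.2 and 195 CPM. Their log2 fold changes were -0.17 and 0.24.

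Of 31 cytokine genes outside the group, 8 were tested with none at an unadjusted p under 0.05, and 11 had no read in any library, among them Il4, Il6, Il13, Il17a and Il22. Il16, a chemoattractant of CD4+ cells, averaged 405 ± 26.5 CPM in CD11c+ and 456 ± 24.3 CPM in CD11c- cells (SD, n = 4 each; log2 fold change -0.17, edgeR adjusted p = 0.991). In CD11c+ and CD11c- cells Mif, a macrophage-acting cytokine, averaged 124 and 120 CPM, and Flt3l, a growth factor of dendritic cells, 55.8 and 57.2 CPM.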

How the data were processed

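The authors deposited raw counts of reads by gene symbol, not normalized, for 8 SMART-seq2 libraries (10 to 12 preamplification cycles, Nextera XT, single reads of 50 bp, per the labels' protocols). The submitters' processing notes name TopHat2 2.0.8b, HTSeq, bcl2fastq and build mm9; annotation and strand setting are not given in the sources read. No member overlapped another gene of the files in RefSeq. The 5 summary rows stayed out; reads in no gene were 63.1% to 67.1% of uniquely placed reads. No pair of libraries agreed within sampling noise (lowest chi-square per degree of freedom 9.79).

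The quasi-likelihood F test of edgeR 4.0.16 (R 4.3.3), after filterByExpr and TMM scaling, compared CD11c+ minus CD11c- cells, and p-values were adjusted by Benjamini-Hochberg over 10073 genes (threshold 0.05). The SE is the log2 fold change divided by the root of F, and means are given ± SD over 4 libraries. Il2 and Csf2, below the filter, were tested by exact permutation. The steps were tested on simulated data. Alternatives included DESeq2 1.42.0 and limma 3.58.1 (voom). Exon lengths are unions over protein-coding transcripts of GENCODE M21 (GRCm38); promoters are from RefSeq (GRCm38.p6).

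The members and the lists were chosen with earlier results of these data known. Named were all members and, per list, genes called, the 3 of highest mean CPM and up to 4 with an unadjusted p under 0.05; Il2ra, Ifngr2, Fas, Ltbr, Tnfsf9 as a replicate series and the silent cytokines were added after their values were seen. A gene that the rule names is not reported here. Of 256 listed genes, 253 matched the files; Sppl2a, Sppl2b and Adgre1 matched through older symbols, and Trac, Ly6g and Ighm did not match. All other-cell lists are reported with their sums.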

Additional observations from a re-analysis of the deposited data

Results flagged for a closer look

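In 6 of 36 groups of 4 libraries examined (members and summed marker lists in each subset), 1 library stood apart from the other 3 by Dixon's criterion at 95% (its gap to the nearest library, relative to the group's range, passed the critical value); chance flags about 1 in 20 groups, a rate that does not apply to Il2 and Csf2, where 3 libraries at 0 meet the criterion whatever the fourth holds. Ifng was 145 CPM in CD11c+ replicate 2, against 85.2 to 86.2 CPM in the other CD11c+ libraries. Ltb was 510.4 CPM in CD11c- replicate 4, against 378 to 397 CPM in the other CD11c- libraries. Csf1 was 22.1 CPM in CD11c- replicate 2, against 1.76 to 5.08 CPM in the others. Il2 was 1.37 CPM in CD11c+ replicate 1, from 7 reads, and Csf2 was 0.468 CPM in CD11c+ replicate 4, from 3 reads, where the other CD11c+ libraries had no read of either gene. Summed neutrophil markers were 266 CPM in CD11c+ replicate 3, against 2.27 to 39.8 CPM in the other CD11c+ libraries.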

How the results depend on the processing

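No member was called under any of the 18 alternatives, and the number of genes called of all tested was 5 in the reported fit. It was 12 with no filter, 8 with at least 5 CPM in 4 libraries, 36 with DESeq2, 19 with limma voom with quality weights, 11 with edgeR's other dispersion setting (legacy=FALSE), 13 at a threshold of 0.1, and from 1 to 5 when 1 library was left out: 5 without CD11c+ replicate 2, 3 without CD11c- replicate 2, 2 without CD11c+ replicate 1, 3 or 4 or CD11c- replicate 1, and 1 without CD11c- replicate 3 or 4. When the 3 libraries of fewest detected genes were dropped, an alternative added after seeing the data, it was 11. Of the pathway genes, DESeq2 called 3, 1 each among transcription factors, release genes and other TNF ligands; voom and the threshold of 0.1 called 1, a transcription factor. Libraries of the same number deviated together with correlations of 0.0792, 0.187, 0.128 and 0.192, and each library correlated best with its own number. The labels do not say whether equal numbers share a mouse, and the reported fit did not pair the numbers. Variation shared by libraries of the same number is thus not taken out of the reported p-values. With the replicate number as a block, 13 genes and no member were called; Tnf and Ltb had unadjusted p of 0.0414 and 0.0321 (adjusted p = 0.805 and 0.799), and their log2 fold changes were 1.40 and -0.23. For Lta the log2 fold change was -1.54 with the replicate block and between -1.61 and -0.01 with 1 library left out. The log2 fold change of Csf1 was 0.11 with the replicate block and between -0.70 and 0.82 with 1 library left out, and that of Spp1 was 0.16 without those 3 libraries; the cause was not tested. Fits without a filter or with DESeq2 include Il2 and Csf2. The few reads of Il2, Csf2, Lta, Spp1 and Tnf limit what these libraries show of them.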

Other observations

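Of the marker lists of further liver cells, those of B cells and hepatocytes were low. B cell markers summed to between 9.58 and 13.6 CPM in CD11c+ and between 6.16 and 14.5 CPM in CD11c- libraries. Hepatocyte markers summed to between 0 and 5.94 CPM in CD11c+ and between 1.49 and 6.58 CPM in CD11c- libraries. NK and ILC1 markers summed to between 11.5 and 82.1 CPM in CD11c+ and between 6.31 and 37.8 CPM in CD11c- libraries, mostly from Tyrobp and Fcer1g. In CD11c+ and CD11c- libraries Tyrobp averaged 24.0 and 11.4 CPM and Fcer1g 13.7 and 7.23 CPM (edgeR adjusted p = 0.991 each). Klrb1c averaged 3.21 and 1.07 CPM and Ncr1 0.52 and 0.09 CPM. Klra8 and Klra4 were at 0 in all libraries. Cholangiocyte markers summed to between 1.76 and 10.9 CPM in CD11c+ and between 9.10 and 17.1 CPM in CD11c- libraries, nearly all of it Epcam, with Krt19 and Krt7 at 0 in all. Stellate and endothelial markers summed to between 17.8 and 28.1 CPM in CD11c+ and between 24.7 and 39.4 CPM in CD11c- libraries, mostly Pecam1.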
